A study of Mus musculus with 8 samples.

Results

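B-type fibroblasts, one of 3 fibroblast populations sorted from the adult mouse lung, were compared with pulmonary single cells, the suspension of lung cells from which they were sorted. The comparison rests on 4 of the 8 samples of the series: 2 of B-type fibroblasts (arrays B1 and B2) and 2 of pulmonary single cells (Pu1 and Pu2), chosen by their titles. A-type (A1, A2) and C-type (C1, C2) fibroblasts, with 2 samples each, share the model and are set beside B-type fibroblasts where they differ. All cells came fresh from lungs of adult female C57BL/6 mice of 12 to 16 weeks, with no genetic change or treatment given in the labels. Each sample held 50000 cells from a preparation of its own, and its RNA (10 ng) was amplified before labelling with Cy3. The sort stained CD31 (endothelium), CD45 (leukocytes), CD146 (perivascular and endothelial cells), Lyve-1 (lymphatic vessels), TER119 (red cells) and E-cadherin (epithelium), together with Pdgfra, Sca-1 and Thy-1. The sources used here give neither the gate of B-type cells nor how many mice a sample pooled. The p-values rest on the spread between the 2 preparations of a group, pooled over all 4 groups, and cannot be read as a spread between mice.

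Fibroblasts build and maintain connective tissue: they secrete fibrillar collagens, elastic fibre proteins and proteoglycans, and signal to neighbouring epithelium, vessels and leukocytes. In the lung, adventitial fibroblasts lie in the cuffs around large vessels and airways and are rich in matrix, complement and chemokine transcripts. Alveolar fibroblasts lie in the gas-exchange walls, and part of them store lipid. A lung cell suspension holds all of these beside much larger numbers of leukocytes, endothelial and epithelial cells.

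Values are log2 signals relative to the 75th percentile of their own array, and differences are B-type minus pulmonary single cells with the standard error (SE) of the limma fit, n = 2 arrays in each group. Well above background were 60.7% and 63.4% of spots on B1 and B2 and 68.7% on each pulmonary array. Across the 17063 genes tested, B1 and B2 correlated at r = 0.986 and Pu1 and Pu2 at r = 0.916, and 4.9% and 30.5% of genes lay 2-fold or more apart between the paired arrays. Genes are not independent replicates, so these correlations only describe the arrays. Between A1 and A2 5% of genes lay as far apart, and between C1 and C2 20.7%. The fit gives all groups the same spread for a gene, so it can understate that of the pulmonary arrays. It can likewise overstate that of the A-type and B-type arrays, so a gene that does not pass between these types is not shown to be alike. Both pulmonary samples were hybridised on one slide and scanned together, and all 6 fibroblast samples on another, so slide and cell population cannot be told apart in any difference from the pulmonary arrays. In bulk RNA, fewer cells of a type and less RNA per cell cannot be told apart either. Where neither array of the dimmer group measured a probe well above background, the fold is a lower bound, taken against the lowest signal that was above background on each array (the floor), and is written "at least".

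Of the 17063 genes, 5198 (30.5%) differed at a Benjamini-Hochberg adjusted p under 0.05, 2878 (16.9%) higher and 2320 (13.6%) lower in B-type fibroblasts. All counts of gene lists below are to be set beside these shares. The lower genes lay further apart: 1011 were lower by at least 8-fold on the fitted scale and 528 were higher by as much. Of the genes called lower, 950 were above background on neither B-type array, and of those called higher, 198 on neither pulmonary array. The filter kept 2003 genes through the pulmonary arrays alone and 989 through the B-type arrays alone. For such genes the filter itself favours the group that kept them, so their direction carries little information. The arrays of the 2 groups did not overlap for 11668 genes (68.4%), and an exact permutation test of 2 arrays against 2 cannot go below p = 0.333. The balance of directions depends on the scaling, since the median over all genes was 0.11 here and shifted by 0.35 under median scaling and by -0.32 with the percentile taken over probes detected on all arrays. Of the calls, 55.4% were in the higher direction here, 69.6% under median scaling, 69.7% in the authors' value table, 38.8% with that other percentile and 68.5% under a stricter filter. Normexp background correction, which adds an offset of 50 to every signal, shrank the fold of 158 of the 224 named genes that were called by more than 1.5 times, and all 54 lower bounds given for named genes exceed the differences fitted on that scale, so each fold below holds for the scanner's own background subtraction. Without B1 or B2 the count was 2433 and 2557, and without Pu1 or Pu2 it was 5262 and 7063.

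Of the transcripts of 8 of the 9 stained surface proteins, 4 were lower in B-type fibroblasts, 1 was higher and 3 did not pass. Lyve1, the hyaluronan receptor of lymphatic vessels, measured -6.10 and -5.07 on the B-type arrays and 2.72 and 2.78 on the pulmonary arrays, and was lower by at least 129-fold (log2 difference -8.33 ± 0.52 SE, adjusted p = 0.000104). Pecam1, which encodes CD31, measured -2.47 and -2.25 on the B-type arrays and 3.46 and 3.28 on the pulmonary arrays and was lower by 53.2-fold (log2 difference -5.73 ± 0.46 SE, adjusted p = 0.000213). Neither set of arrays overlapped. Also lower were Cdh1 at least 5.24-fold and Ptprc 6.07-fold, which encode E-cadherin and CD45. Mcam, which encodes CD146, did not pass, with a log2 difference of -0.31, adjusted p = 0.397: its brightest probe measured 8.49 and 8.57 on the B-type arrays and 8.78 and 8.90 on the pulmonary arrays, and between 8.53 and 8.67 or 8.49 and 8.68 on the A-type and C-type arrays, so it read nearly alike on every array. Of the positive markers, Pdgfra, the PDGF receptor alpha, measured 3.48 and 3.55 on the B-type arrays and 1.79 and 1.55 on the pulmonary arrays and was higher (log2 difference 1.84 ± 0.27 SE, adjusted p = 0.0027). Ly6a, which encodes Sca-1, measured 6.74 and 6.58 on the B-type arrays and 4.85 and 5.01 on the pulmonary arrays, and Thy1 measured 4.91 and 4.63 on the B-type arrays and 2.64 and 2.96 on the pulmonary arrays. All 4 B-type values of Ly6a and Thy1 lay above the pulmonary values, but the differences did not pass: Ly6a (1.73, adjusted p = 0.098) and Thy1 (1.97, adjusted p = 0.165). For Mcam the other kept probes gave a log2 difference of -3.91.

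Among genes with a plain symbol (no clone or accession name) well above background on all 4 arrays, the largest rise was that of Lum. Genes above background on 1 of 2 pulmonary arrays are given with their lists below, and of these Aldh1a3 rose by more (log2 difference 8.49). Lum encodes the collagen-binding proteoglycan lumican. It measured 5.71 and 5.67 on the B-type arrays and -1.81 and -0.89 on the pulmonary arrays, a difference of 131-fold (log2 difference 7.04 ± 0.55 SE, adjusted p = 0.000193). Penk, the precursor of enkephalin peptides, followed at 5.48 and 5.07 on the B-type arrays and -1.81 and -0.55 on the pulmonary arrays (log2 difference 6.46 ± 0.51 SE, adjusted p = 0.000201), and Scara5, a ferritin receptor, at 4.10 and 4.15 on the B-type arrays and -2.14 and -2.22 on the pulmonary arrays (log2 difference 6.30 ± 0.63 SE, adjusted p = 0.000511). The B-type arrays lay far above the pulmonary arrays for all 3. The other 7 of the 10 largest rises among genes above background on all 4 arrays were Ccl11 77.1-fold, Dio2 72.6-fold, Fbln7 66.6-fold, Fbln2 65.1-fold, Tnfaip6 58.2-fold, Sfrp4 57.8-fold and Col14a1 57.1-fold. They encode the eosinophil attractant eotaxin, a thyroid hormone activating deiodinase, a pair of fibulins of the elastic and basement membrane matrix, a hyaluronan-modifying protein, a secreted Wnt antagonist and a collagen that decorates fibrils. A further 5 genes were not above background on either pulmonary array, so that only bounds can be given: Efhd1 at least 264-fold, Arsi at least 55.4-fold, Itih5 at least 42.6-fold, Aif1l at least 37.3-fold and Nrg2 at least 35.8-fold. Itih5 encodes a heavy chain that binds hyaluronan, and Nrg2 a ligand of ErbB receptors. Nrg2 lost its call under the stricter filter, where another probe stood for it (0.59, adjusted p = 0.216). For Fbln7 the other kept probes gave a log2 difference of 3.43, and 0.59 for Nrg2, 2.52 for Scara5, 0.85 to 4.69 for Tnfaip6. Arsi gave a log2 difference of 7.12 without Pu1 and 5.43 without Pu2, Col14a1 4.57 and 7.10, Dio2 5.38 and 6.98, Fbln2 5.33 and 6.72, and Penk 5.83 and 7.09.

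The largest falls were transcripts of epithelium, leukocytes, vessels and red cells. Sftpc, the surfactant protein of alveolar type 2 cells, measured -1.87 and -0.97 on the B-type arrays and 7.74 and 7.76 on the pulmonary arrays, a fall of 577-fold (log2 difference -9.17 ± 0.61 SE, adjusted p = 0.000119). Scgb1a1, the secretoglobin of club cells, measured 2.13 and -0.49 on the B-type arrays and 9.87 and 9.68 on the pulmonary arrays, a fall of 495-fold (log2 difference -8.95 ± 0.76 SE, adjusted p = 0.000266). The pulmonary arrays were close together for both genes, and the B-type arrays differed from each other by more, above all for Scgb1a1. Cd74, the invariant chain of MHC class II, measured -2.38 and -3.45 on the B-type arrays and 6.01 and 5.96 on the pulmonary arrays (log2 difference -8.90 ± 0.70 SE, adjusted p = 0.000193). The other 7 of the 10 were Lcp1 352-fold, Itgb2 346-fold, Cbr2 340-fold, Plet1 338-fold, Cd93 317-fold, Hba-a1 277-fold and Abcg1 226-fold, among them an actin bundler and an integrin chain of leukocytes, a carbonyl reductase of lung epithelium and an endothelial receptor. Bounds exceeded the fall of Sftpc for the protease gene Ctss at least 1490-fold, the lysozyme gene Lyz2 at least 775-fold and Hba-a2 at least 694-fold. They did so too for Laptm5 at least 630-fold, which encodes a lysosomal membrane protein of leukocytes. H2-Aa was lower by at least 466-fold. The probes of Hba-a1 and Hba-a2 match several globin genes and cannot assign the signal to one of them. Cbr2 gave a log2 difference of -9.41 without Pu1 and -7.41 without Pu2, and Hba-a2 -11.43 and -8.66. Ctss gave a log2 difference of -11.43 without B1 and -10.03 without B2, Hba-a2 -10.93 and -9.15, Plet1 -7.72 and -9.09, and Scgb1a1 -10.27 and -7.64.

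**Figure D1:**
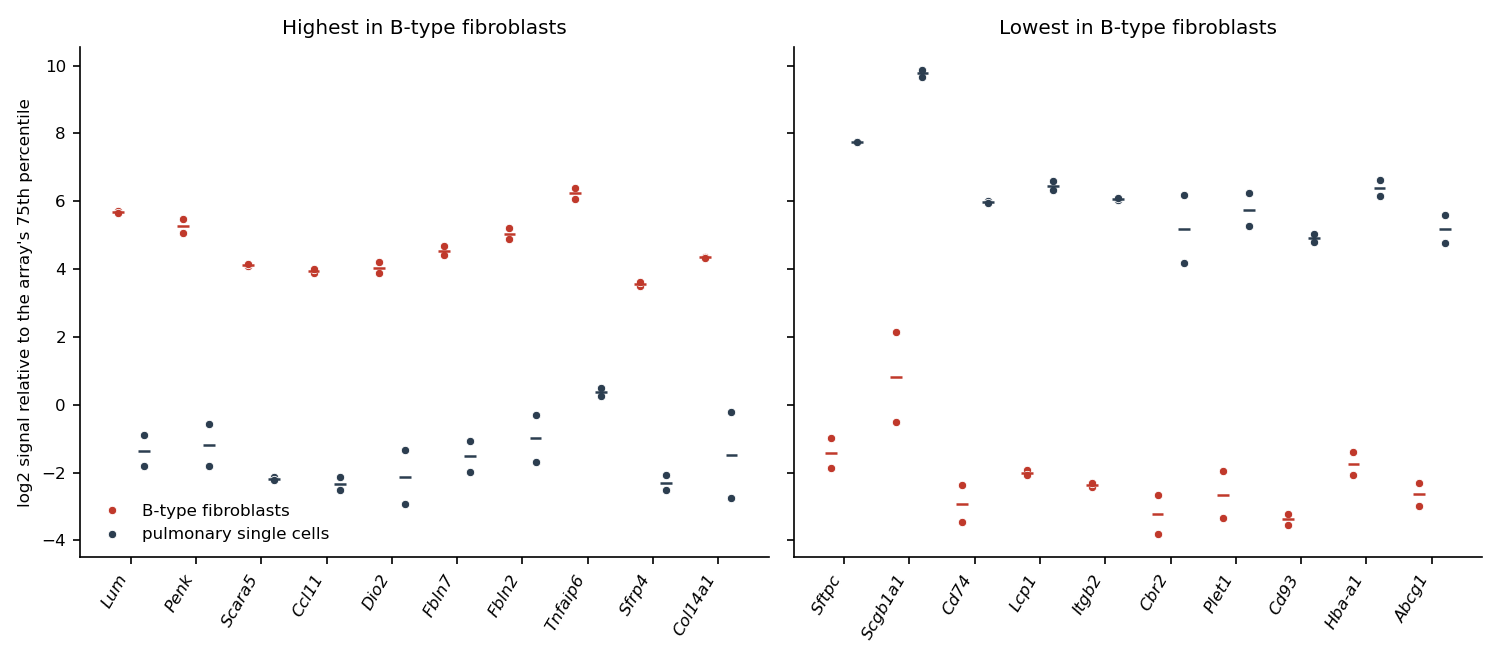
Log2 signal relative to the 75th percentile of the array (vertical axis) for the 10 genes measured highest and the 10 measured lowest in B-type fibroblasts (horizontal axis), with 1 point for each of the 2 arrays in a group and a bar at the group mean. B-type and pulmonary arrays do not overlap for any of these genes; for Scgb1a1 the B-type arrays lie at 2.13 and -0.49.

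**Figure D2:**
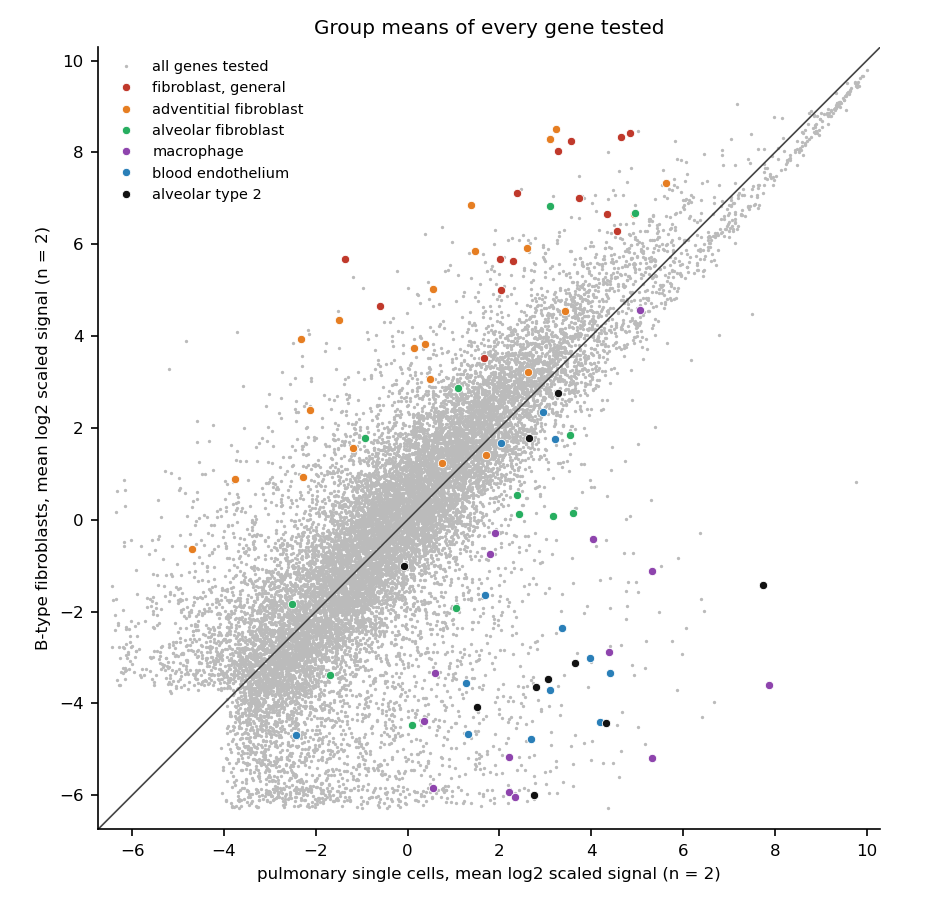
Mean log2 scaled signal of B-type fibroblasts (vertical axis) against pulmonary single cells (horizontal axis), 2 arrays each, for the 17063 genes tested (grey), with 6 marker lists in colour and the line of equal signal. General fibroblast markers lie above the line, and macrophage, endothelial and alveolar type 2 markers lie mostly below it.

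In each of 14 marker lists of lung cells other than fibroblasts, smooth muscle and pericytes, more genes were called lower than higher in B-type fibroblasts, by margins that differed widely. For blood endothelium 0 of 13 tested genes were higher, 11 lower and 2 did not pass (median -5.73), set beside a median of 0.11 over all genes. Over all genes, 16.9% were called higher and 13.6% lower. Cdh5, the cadherin of endothelial junctions, measured -5.15 and -3.66 on the B-type arrays and 4.28 and 4.10 on the pulmonary arrays, and Cldn5, a tight junction claudin, measured -3.08 and -3.59 on the B-type arrays and 4.18 and 4.63 on the pulmonary arrays. The B-type arrays lay well below the pulmonary arrays for both, and the falls were Cdh5 388-fold (1 of 2 B-type arrays above background, 251-fold with the other at the floor), Cldn5 213-fold and Vwf 127-fold. Tek (-0.36, adjusted p = 0.512) and Car4 (-0.61, adjusted p = 0.135) did not pass. Of the lymphatic list, 4 of 5 genes were lower, with Flt4, the VEGF receptor of lymphatic vessels, lower by at least 25.5-fold, and Prox1 (-0.52, adjusted p = 0.311) did not pass. The 13 endothelial markers summed to a log2 signal of 3.62 to 3.73 on the B-type and 6.68 to 6.96 on the pulmonary arrays. For Car4 the other kept probes gave a log2 difference of -6.39, and -1.08 for Vwf. Cdh5 gave a log2 difference of -7.85 without B1 and -9.35 without B2.

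For macrophage markers 0 of 14 tested genes were higher, 13 lower and 1 did not pass (median -6.42). Chil3, a chitinase-like secreted protein, measured -5.09 and -2.11 on the B-type arrays and 7.60 and 8.15 on the pulmonary arrays, a fall of 2850-fold (1 of 2 B-type arrays above background, 1890-fold with the other at the floor). Itgax and Mrc1, which encode CD11c and the mannose receptor, were lower by at least 97.2-fold and at least 89.3-fold. Csf1r (-0.49, adjusted p = 0.4) was the exception. Of the neutrophil list 6 of 8 were lower, led by S100a9, a calcium-binding protein of granulocytes, lower by at least 399-fold, with Camp (-0.59, adjusted p = 0.317) and Csf3r (-0.25, adjusted p = 0.546) not passing. T and NK cell markers were lower in 11 of 12 cases, with Gzma at least 243-fold and Cd2 at least 131-fold, a granzyme and an adhesion receptor, and Nkg7 (-1.09, adjusted p = 0.144) apart. All 5 B cell markers were lower, as were 4 of 9 monocyte and dendritic cell markers, with Ccr2 at least 21.7-fold. The remaining 5 of that list did not pass: Cst3 (0.84, adjusted p = 0.0888), Plac8 (0.70, adjusted p = 0.29), Siglech (-0.22, adjusted p = 0.55), Flt3 (-0.28, adjusted p = 0.605) and Zbtb46 (-0.73, adjusted p = 0.213). Both tested mast cell genes were lower (Kit at least 73.8-fold), and 6 of 7 genes of red cells and platelets were, all but Itga2b (-0.97, adjusted p = 0.0749). For Csf1r the other kept probes gave a log2 difference of -5.42 to -5.31, and -3.80 to -2.76 for Flt3, -6.09 for Nkg7, -0.61 for Plac8. Gzma gave a log2 difference of -8.93 without Pu1 and -7.75 without Pu2, and S100a9 -11.40 and -9.89. Chil3 gave a log2 difference of -9.99 without B1 and -12.96 without B2.

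In the epithelial lists most genes were lower. For alveolar type 2 cells 0 of 10 tested genes were higher, 7 lower and 3 did not pass (median -6.48), with Slc34a2 at least 130-fold and Sftpa1 at least 322-fold, a phosphate transporter and a surfactant protein. The genes that did not pass were Abca3 (-0.92, adjusted p = 0.106), Etv5 (-0.87, adjusted p = 0.0842) and Lamp3 (-0.52, adjusted p = 0.296), and the probe of Lamp3 matches several genes. For airway epithelium 0 of 14 tested genes were higher, 12 lower and 2 did not pass (median -5.09), with Bpifa1, an antimicrobial secretory protein, lower by at least 131-fold. The ciliary genes Tekt1 (-1.23, adjusted p = 0.0565) and Ccdc39 (-1.02, adjusted p = 0.265) did not pass. Of the 9 alveolar type 1 genes, 7 were lower, with Clic5 461-fold (1 of 2 B-type arrays above background, 263-fold with the other at the floor) and Aqp5 13.7-fold, a chloride channel protein and a water channel. The other 2, Igfbp6 9.01-fold and Pdpn 8.94-fold, were higher. Fibroblasts are known to express both an IGF binding protein of this kind and podoplanin, but which cells gave this signal was not tested. Mesothelial markers were lower in 5 of 6 cases, with Krt19 at least 116-fold and Upk3b at least 25.2-fold, and Wt1 (-0.65, adjusted p = 0.623) did not pass. Of these 6 genes, 5 were above background on neither B-type array and were kept by the pulmonary arrays alone. Of the 6 Schwann cell genes tested, 2 were higher and 3 lower. Upk3b gave a log2 difference of -4.74 without Pu1 and -6.65 without Pu2. Clic5 gave a log2 difference of -7.50 without B1 and -10.19 without B2, and Upk3b -4.96 and -6.42.

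Summed over each of these 14 lists, the signal was lower on both B-type arrays than on both pulmonary arrays in 12. It was higher on the B-type arrays for monocytes and dendritic cells, at a log2 of 6.99 to 7.10 against 6.23 to 6.63, most of it from Cst3, the broadly expressed cystatin C, at 6.92 and 6.81 on B1 and B2. For alveolar type 1 cells the arrays overlapped, at 6.09 to 6.32 against 5.88 to 6.41, with Igfbp6 the brightest on B1 and B2. The log2 summed signal of B1 and B2 against Pu1 and Pu2 was 4.74 to 4.78 against 8.44 to 8.97 for macrophages, 3.35 to 3.71 against 8.13 to 8.23 for alveolar type 2 cells, and 1.83 to 2.98 against 9.86 to 9.97 for airway epithelium. It was 2.98 to 3.0 against 5.32 to 6.25 for T and NK cells and -1.93 to -0.09 against 2.91 to 3.53 for mesothelium. The gap was narrower for neutrophils, at 7.04 to 7.13 against 7.49 to 7.94, and for Schwann cells, at 2.81 to 2.89 against 3.93 to 4.08. Of the 14 macrophage markers 5 were above background on neither B-type array, of the 10 alveolar type 2 markers 3, of the 14 airway markers 6, of the 12 T and NK cell markers 7 and of the 6 mesothelial markers 5. The same held for 4 of 5 lymphatic and both mast cell genes. All of these passed the filter through the pulmonary arrays alone, which fixed their direction in large part. Most of the macrophage sum on B1 and B2 came from Csf1r, whose brightest probe measured 4.61 and 4.55 there. The other kept probes of Csf1r fell, as given above, so this part of the sum rests on the choice of the brightest probe. Lyz2, Kit, Foxj1 and Slc34a2 were among those at background. The part of remaining cells of these types in the results was not tested.

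**Figure D3:**
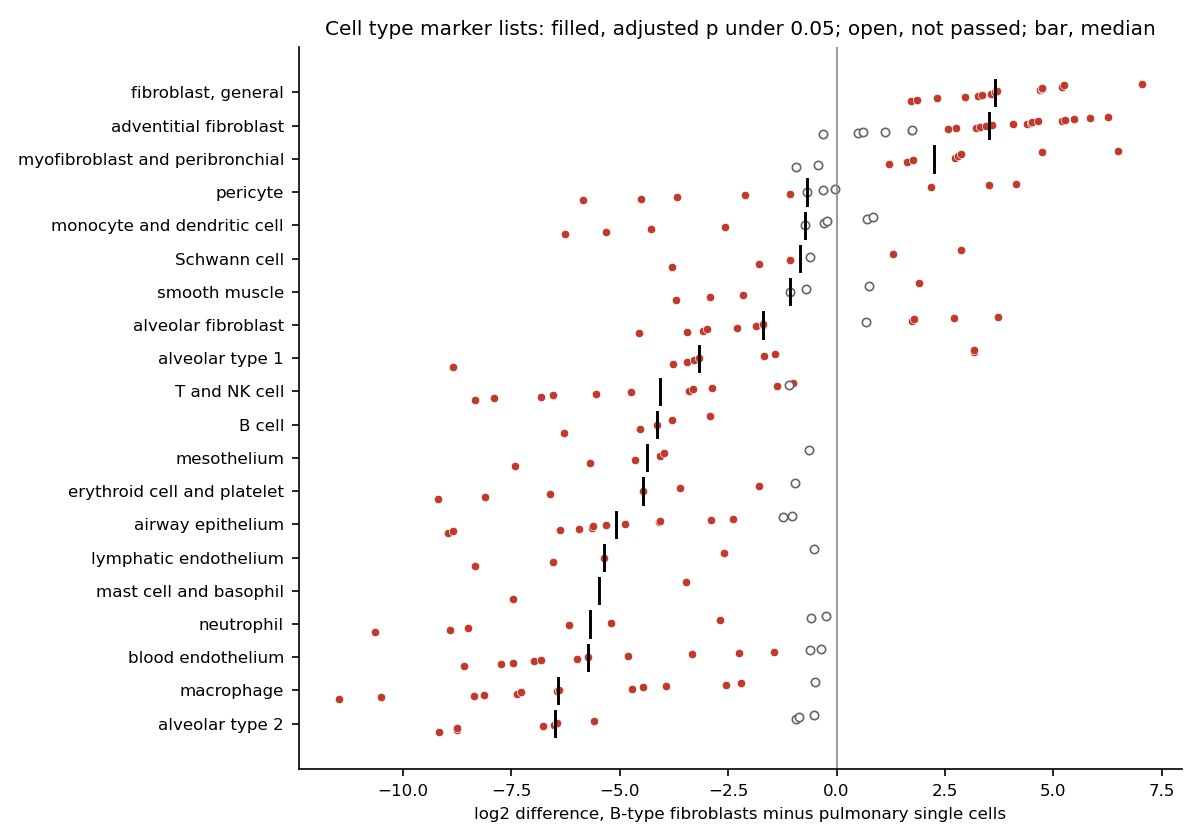
Log2 difference between B-type fibroblasts and pulmonary single cells (horizontal axis) for every tested gene of 20 cell type marker lists (vertical axis), with 1 point a gene, filled where the adjusted p was under 0.05 and open where it was not, and a bar at the median of the list. The medians run from -6.48 for alveolar type 2 cells to 3.66 for general fibroblast markers.

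All 15 general fibroblast markers were higher, with a median of 3.66. Dcn, which encodes decorin, a proteoglycan that binds collagen fibrils, measured 8.28 and 8.32 on the B-type arrays and 3.09 and 3.11 on the pulmonary arrays (log2 difference 5.20 ± 0.43 SE, adjusted p = 0.000237), and Islr, an immunoglobulin-repeat protein of mesenchymal cells, measured 4.75 and 4.55 on the B-type arrays and -0.62 and -0.58 on the pulmonary arrays (log2 difference 5.25 ± 0.27 SE, adjusted p = 5.66e-05). The B-type arrays lay above the pulmonary arrays in each case. Fbln1, a fibulin of basement membranes and elastic fibres, was higher by 26.7-fold. Fbln1 gave a log2 difference of 4.05 without Pu1 and 5.43 without Pu2.

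Adventitial markers were high in B-type fibroblasts: 17 of 22 tested genes were higher, 0 lower and 5 did not pass (median 3.52). Serpinf1, which encodes the antiangiogenic factor PEDF, measured 8.55 and 8.45 on the B-type arrays and 3.54 and 2.92 on the pulmonary arrays, 38.6-fold higher (log2 difference 5.27 ± 0.33 SE, adjusted p = 0.000104). Has1, a hyaluronan synthase, measured 6.77 and 6.94 on the B-type arrays and 1.30 and 1.47 on the pulmonary arrays, 44.4-fold higher (log2 difference 5.47 ± 0.27 SE, adjusted p = 5.2e-05). Ccl11 measured 3.88 and 4.01 on the B-type arrays and -2.14 and -2.50 on the pulmonary arrays, and Col14a1 measured 4.37 and 4.34 on the B-type arrays and -2.75 and -0.22 on the pulmonary arrays. The B-type pair was tight for all 4 genes, while Pu1 and Pu2 lay apart for Col14a1. The 5 that did not pass were Ly6a (1.73, adjusted p = 0.098), Gsn (1.11, adjusted p = 0.162), Sema3c (0.61, adjusted p = 0.149), Anxa3 (0.50, adjusted p = 0.484) and Dpp4 (-0.30, adjusted p = 0.76). Dpp4, a surface peptidase, measured 1.39 and 1.45 on the B-type arrays and 2.27 and 1.16 on the pulmonary arrays, so the groups overlapped, against -1.60 and -1.70 on the A-type arrays and -3.34 and -5.46 on the C-type arrays. Of the 22 adventitial genes, 12 were higher and 0 lower than in C-type fibroblasts, where 1.32% of all genes were called higher, and 0 passed against A-type fibroblasts. The 12 became 0 without B1, 1 without B2 and 3 with the 4 B-type and C-type arrays alone, and with normexp background correction Dpp4 passed against A-type fibroblasts as well (2.13, adjusted p = 0.0316). Col14a1 gave a log2 difference of 4.57 without Pu1 and 7.10 without Pu2.

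Alveolar markers split. Of 13 tested, 8 were lower and 4 higher than in pulmonary single cells (median -1.70), Frmd3 (0.67, adjusted p = 0.203) did not pass, and Wnt2 was below the filter. Npnt, a basement membrane protein that binds integrin alpha 8, measured -0.09 and 0.37 on the B-type arrays and 3.54 and 3.66 on the pulmonary arrays, 11-fold lower (log2 difference -3.46 ± 0.30 SE, adjusted p = 0.000296). Scn3a, a sodium channel subunit, measured -4.74 and -4.19 on the B-type arrays and 0.08 and 0.12 on the pulmonary arrays, lower by at least 17.7-fold (log2 difference -4.56 ± 0.30 SE, adjusted p = 0.000111). Neither gene had overlapping arrays. Also lower were Plin2 8.44-fold, Rgcc 7.88-fold and Itga8 4.95-fold, which encode a lipid droplet coat protein, a cell cycle regulator and the integrin chain that binds the Npnt product. The genes that were higher were Gpc3 13.2-fold, Fgf10 6.56-fold, Tcf21 3.46-fold and Inmt 3.34-fold, a glypican, a growth factor of lung branching, a mesenchymal transcription factor and a methyltransferase. Of the 13, 5 were lower and 0 higher than in C-type fibroblasts, beside 1.14% of all genes called lower in that comparison, and the 5 became 2 without B1, 3 without B2 and 3 with the 4 B-type and C-type arrays alone. Against A-type fibroblasts 0 of them passed, but Npnt (-2.61 and -2.95) and Itga8 (-2.18 and -2.53) did with normexp correction and with a trended and robust variance, and Scn3a (-3.44) with the latter. For Scn3a the other kept probes gave a log2 difference of -4.33 to -1.53. Tcf21 lost its call without B1 (adjusted p = 0.0654).

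**Figure D4:**
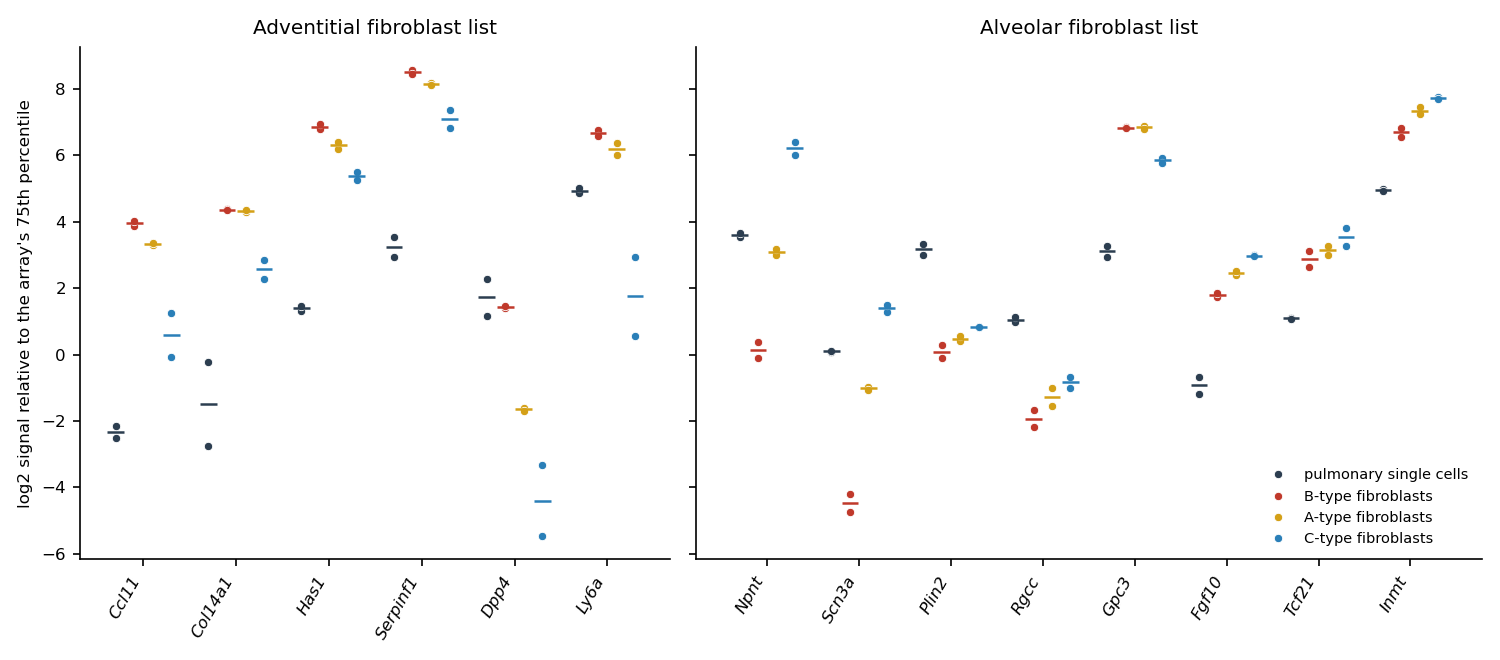
Log2 signal relative to the 75th percentile of the array (vertical axis) for 6 adventitial and 8 alveolar fibroblast genes (horizontal axis) on the 2 arrays of each of the 4 groups, with a bar at the group mean. For Npnt and Scn3a the B-type arrays lie below those of every other group, and for Dpp4 they lie within the range of the pulmonary arrays and above the A-type and C-type arrays.

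Genes of contractile and mural cells did not move as one. Of the 10 genes of myofibroblasts and peribronchial fibroblasts 8 were higher, with Aspn 90.4-fold (1 of 2 pulmonary arrays above background), Pdgfrl 26.6-fold, Fgf18 7.26-fold and Hhip 6.96-fold, a collagen-binding proteoglycan, a receptor-like protein, a growth factor and a hedgehog-binding protein, and Acta2 (-0.94, adjusted p = 0.117) and Lgr6 (-0.44, adjusted p = 0.391) did not pass. In the smooth muscle list 1 of 7 tested genes were higher, 3 lower and 3 did not pass (median -1.07), beside 16.9% higher and 13.6% lower of all genes. Myh11, the smooth muscle myosin heavy chain, measured -3.19 and -3.06 on the B-type arrays and 0.82 and 0.36 on the pulmonary arrays (log2 difference -3.71 ± 0.41 SE, adjusted p = 0.000824), and Des and Cnn1, desmin and calponin, were lower by 7.52-fold and 4.49-fold. Smtn, which encodes smoothelin, was higher by 3.72-fold. Of 11 pericyte genes 3 were higher and 5 lower. The higher ones were Abcc9 17.5-fold, Kcnj8 11.4-fold and Pdgfrb 4.5-fold, both subunits of a potassium channel and the PDGF receptor beta, and among the lower ones were Trpc6 at least 19-fold and Rgs5 at least 6.5-fold, a calcium channel and a G protein regulator. The call was also lost for Smtn with the 4 B-type and pulmonary arrays alone (1.89, adjusted p = 0.0594). Abcc9 gave a log2 difference of 2.89 without Pu1 and 5.37 without Pu2, and Smtn 1.25 and 2.54. Des lost its call without B2 (adjusted p = 0.0664). Pdgfrb lost its call without B1 (adjusted p = 0.062). Smtn lost its call without B1 or B2 (adjusted p = 0.0778 to 0.111).

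Collagen genes were higher as a group, without a called fall. Of 12 fibrillar and beaded-filament collagen genes 10 were higher (median 3.23), with Col6a6 34-fold (1 of 2 pulmonary arrays above background, 17-fold with the other at the floor), Col5a3 15.1-fold, Col5a1 14.5-fold and Col1a2 12.9-fold. Col1a2, a chain of type I collagen, measured 8.51 and 8.15 on the B-type arrays and 4.37 and 4.91 on the pulmonary arrays (log2 difference 3.69 ± 0.31 SE, adjusted p = 0.000255), so the arrays did not overlap. Col27a1 (0.69, adjusted p = 0.2) and Col11a2 (-0.46, adjusted p = 0.411) did not pass. Among network, fibril-associated and other collagens, 8 of 16 were higher and 8 did not pass (median 1.59), with Col15a1 17.9-fold, Col16a1 16.3-fold and Col4a6 15.6-fold besides Col14a1. Enzymes and chaperones of collagen synthesis and cross-linking were higher in 13 of 18 cases (median 2.38), with Adamts2 21.8-fold, Pcolce 12.6-fold, Loxl3 11.2-fold and Plod2 9.44-fold, which trim the procollagen N-terminus, enhance C-terminal trimming, oxidise lysines and hydroxylate them. Of these 18, 0 were called lower, beside 13.6% of all genes. For Col16a1 the other kept probes gave a log2 difference of 0.35 to 2.23, and 1.51 for Col4a6, 3.0 for Col6a6. Col4a6 gave a log2 difference of 3.26 without Pu1 and 4.66 without Pu2, Col5a3 3.17 and 4.66, Col6a6 6.87 and 3.30, and Plod2 2.60 and 3.88. Col6a6 lost its call without B1 or B2 (adjusted p = 0.0564 to 0.0707).

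In the elastic fibre list 13 of 18 tested genes were higher, 1 lower and 4 did not pass (median 2.59). Fbln2 measured 5.20 and 4.89 on the B-type arrays and -1.67 and -0.29 on the pulmonary arrays, and Mfap5, a microfibril glycoprotein, measured 7.13 and 7.11 on the B-type arrays and 1.60 and 3.18 on the pulmonary arrays. Pu1 and Pu2 differed from each other for both genes, but stayed below B1 and B2. Fbn1, the main fibrillin of adult tissue, was higher by 18.6-fold, while Fbn2 was lower by 1.8-fold. Small leucine-rich proteoglycans, which control the width of collagen fibrils, were higher in 10 of 13 cases and lower in 2 (median 2.96), with Omd, osteomodulin, up by 30.3-fold, and Chad 3.49-fold and Podnl1 2.91-fold (1 of 2 B-type arrays above background) lower, and Fmod (-0.30, adjusted p = 0.517) did not pass. Of laminins and nidogens, 9 of 14 were higher and 2 lower (median 2.77). The laminin chains Lamc1 15.1-fold, Lama2 12.5-fold and Lamb2 9.94-fold were higher, and Lama5 12.6-fold and Lama3 2.08-fold, chains of epithelial and vascular basement membranes, were lower. Other processing ended the call for Chad with normexp background correction (-0.61, adjusted p = 0.0742) and Podnl1 with normexp background correction (-0.42, adjusted p = 0.241) and with the 4 B-type and pulmonary arrays alone (-1.54, adjusted p = 0.0553). The call was lost under other alternatives than leaving out 1 array, namely 7 of 12 for Fbn2 (adjusted p = 0.0674 to 0.273) and 7 of 12 for Lama3 (adjusted p = 0.0566 to 0.165). Fbln2 gave a log2 difference of 5.33 without Pu1 and 6.72 without Pu2, Fbn1 3.59 and 4.84, Lama5 -4.25 and -3.07, Lamc1 2.65 and 5.19, and Mfap5 3.94 and 5.52. Chad lost its call without Pu1 or B2 (adjusted p = 0.0523 to 0.108). Fbn2 lost its call without A1, A2, B1 or B2 (adjusted p = 0.101 to 0.208). Lama3 lost its call without Pu1, Pu2, A1, A2, B1 or B2 (adjusted p = 0.0555 to 0.254). Podnl1 lost its call without B1 or B2 (adjusted p = 0.055 to 0.121).

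Of 20 matricellular genes 13 were higher and 3 lower (median 2.62), beside 16.9% and 13.6% of all genes. Thbs2, a thrombospondin that inhibits vessel growth, measured 0.72 and 0.56 on the B-type arrays and -6.02 and -6.28 on the pulmonary arrays, higher by at least 27.7-fold (log2 difference 6.79 ± 0.53 SE, adjusted p = 0.000193). Smoc2, a calcium-binding matrix protein, measured 3.11 and 3.08 on the B-type arrays and -3.22 and -1.67 on the pulmonary arrays (log2 difference 5.54 ± 0.50 SE, adjusted p = 0.000329), with no overlap for either gene. Comp at least 13.2-fold was also higher, and the lower genes were Spp1 at least 17.1-fold, Vtn at least 7.59-fold and Tnc at least 2.39-fold, osteopontin, vitronectin and tenascin C. Hyaluronan genes were higher in 4 of 11 cases and lower in 1, the hyaluronidase Hyal2 4.97-fold, with a median of -0.31. The higher ones were Tnfaip6 58.2-fold, Has1 44.4-fold, Has2 31.6-fold (1 of 2 pulmonary arrays above background, 15.9-fold with the other at the floor) and Vcan 25.3-fold, so both synthases Has1 and Has2 and the large proteoglycan versican passed. Of 21 matrix proteases and inhibitors 17 were higher and 2 lower (median 3.15). Fap, a surface protease of activated fibroblasts, and Mmp23 were higher by 47.3-fold (1 of 2 pulmonary arrays above background) and 42.4-fold, the inhibitor Timp1 and the protease Mmp3 by 27.7-fold (1 of 2 pulmonary arrays above background) and 24.9-fold, and Mmp12 and Mmp9, proteases of macrophages and neutrophils, were lower by at least 56.8-fold and at least 14.1-fold. Mmp19 (0.78, adjusted p = 0.0891) and Adam12 (-0.46, adjusted p = 0.606) did not pass. For Tnfaip6 the other kept probes gave a log2 difference of 0.85 to 4.69. Calls that another setting removed were those for Tnc with normexp background correction (-0.33, adjusted p = 0.406). Fap gave a log2 difference of 4.57 without Pu1 and 6.56 without Pu2, Has2 6.73 without Pu1, Mmp3 4.03 and 5.25, Smoc2 4.77 and 6.31, and Timp1 4.0 and 5.58. Mmp12 gave a log2 difference of -6.21 without B1 and -7.49 without B2, and Vtn -3.06 and -4.37. Has2 lost its call without Pu2, B1 or B2 (adjusted p = 0.0853 to 0.115). Tnc lost its call without Pu1, B1 or B2 (adjusted p = 0.0903 to 0.12).

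**Figure D5:**
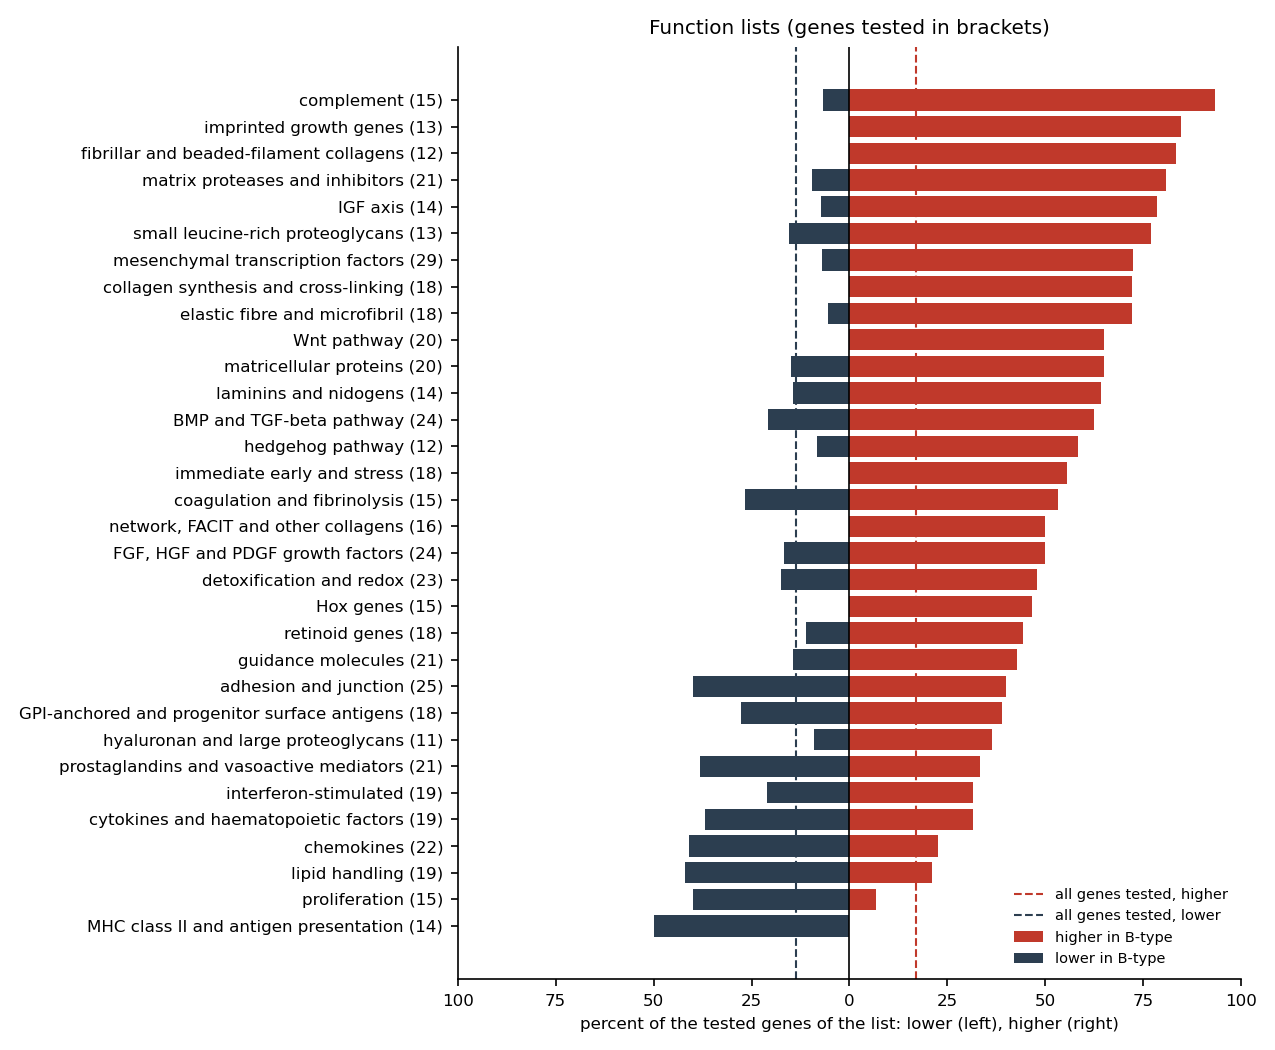
Percent of the tested genes of each of 32 function lists (vertical axis, genes tested in brackets) called higher (right, red) or lower (left, dark) in B-type fibroblasts than in pulmonary single cells at an adjusted p under 0.05. Dashed lines mark the share over all 17063 genes, 16.9% higher and 13.6% lower, and the complement, imprinted gene and fibrillar collagen lists reach furthest to the right. The list of MHC class II and antigen presentation has 7 lower genes of 14 and 0 higher, and its class I genes did not pass.

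Complement, a cascade of plasma proteins that tags cells for clearance, had the highest share of risen genes among the function lists: 14 of 15 tested genes were higher, 1 lower and 0 did not pass (median 3.23). C1s1, a protease of the first complement complex, measured 5.80 and 5.78 on the B-type arrays and 1.92 and 1.36 on the pulmonary arrays (log2 difference 4.15 ± 0.29 SE, adjusted p = 0.000128). Its arrays stood apart. C2 12.6-fold and Serping1 11.8-fold were also higher, and the single gene called lower was C6, a part of the membrane attack complex, by at least 7.65-fold. Of 15 coagulation and fibrinolysis genes 8 were higher and 4 lower, beside 16.9% and 13.6% of all genes. F3, tissue factor, which starts coagulation, measured 5.13 and 5.25 on the B-type arrays and 0.29 and 0.59 on the pulmonary arrays (log2 difference 4.75 ± 0.29 SE, adjusted p = 0.000101), and Plat, tissue plasminogen activator, was higher by 15.4-fold. The lower genes were F10 at least 66.8-fold, Plaur 12.8-fold, F5 3.12-fold and Serpine2 2.82-fold. A different setting left no call for F5 without the filter (-1.64, adjusted p = 0.0515) and with the 4 B-type and pulmonary arrays alone (-1.64, adjusted p = 0.0776). Of the alternatives other than leaving out 1 array, the call was lost under 6 of 11 for C6 (adjusted p = 0.0569 to 0.0721) and 5 of 12 for Serpine2 (adjusted p = 0.051 to 0.091). C2 gave a log2 difference of 2.95 without Pu1 and 4.36 without Pu2, F5 -2.26 without Pu2, and Serpine2 -2.10 without Pu2. C6 lost its call without Pu1, Pu2, A1, A2, B1 or B2 (adjusted p = 0.072 to 0.184). F5 lost its call without Pu1, A1, A2, B1 or B2 (adjusted p = 0.052 to 0.153). Serpine2 lost its call without Pu1, A1, A2, B1 or B2 (adjusted p = 0.0509 to 0.157).

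Chemokines split by gene: 5 of 22 tested genes were higher, 9 lower and 8 did not pass (median -0.10), shares to be set beside 16.9% and 13.6% of all genes. Cxcl1, a neutrophil attractant, measured 5.89 and 6.19 on the B-type arrays and 0.95 and 1.0 on the pulmonary arrays (log2 difference 5.06 ± 0.30 SE, adjusted p = 8.15e-05). Ccl7, a monocyte attractant, measured 0.48 and 0.86 on the B-type arrays and -2.45 and -3.27 on the pulmonary arrays (log2 difference 3.53 ± 0.39 SE, adjusted p = 0.000824). The B-type arrays lay above the pulmonary arrays for both, and Ccl11, Ccl8 9.59-fold and Ccl2 3.89-fold completed the higher genes. The lower ones were led by Ccl6 763-fold (1 of 2 B-type arrays above background), Cxcl15 at least 162-fold, Ccl9 at least 120-fold and Ccl4 at least 30.6-fold, chemokines known from myeloid cells or, for Cxcl15, from lung epithelium. Of 19 cytokine genes 6 were higher and 7 lower. Il6, a cytokine of the acute phase, measured 4.28 and 4.71 on the B-type arrays and -0.06 and 0.03 on the pulmonary arrays (log2 difference 4.51 ± 0.34 SE, adjusted p = 0.000177), and Il33, an alarmin that acts on type 2 lymphocytes, measured 4.10 and 4.11 on the B-type arrays and -0.60 and 0.20 on the pulmonary arrays (log2 difference 4.31 ± 0.53 SE, adjusted p = 0.00122), again without overlap. The receptor Il1r1 11.2-fold and the macrophage growth factor Csf1 7.66-fold were higher as well. Il1b and Tnf, made by macrophages, were lower by at least 166-fold and at least 33.7-fold, with Il18 22.1-fold (1 of 2 B-type arrays above background) and Il34 at least 8.35-fold lower too. The call was also lost for Ccl2 with the 4 B-type and pulmonary arrays alone (1.96, adjusted p = 0.0535). Ccl4 gave a log2 difference of -7.20 without Pu1 and -5.90 without Pu2, Il1r1 2.49 and 4.49, and Tnf -7.41 and -5.81. Il34 gave a log2 difference of -4.18 without B1 and -2.86 without B2. Ccl2 lost its call without Pu2 or B2 (adjusted p = 0.0504 to 0.128).

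The upstream 250 bases of Cxcl1, Il6 and Tnfaip6 are shown because inflammatory genes of this kind are textbook targets of AP-1 and NF-kappaB, and because these genes rose by 5.06, 4.51 and 5.86 (log2). They were chosen after their values and their matches were seen, from the genes that held a match. A motif in each of them was therefore fixed by the choice. The sequences are from RefSeq (GRCm38.p6), 5′ to 3′ toward the gene start, with matches to the AP-1 motif TGACTCA or the NF-kappaB consensus, on either strand, in capitals.
Cxcl1, chr5:90890995-90891244, + strand: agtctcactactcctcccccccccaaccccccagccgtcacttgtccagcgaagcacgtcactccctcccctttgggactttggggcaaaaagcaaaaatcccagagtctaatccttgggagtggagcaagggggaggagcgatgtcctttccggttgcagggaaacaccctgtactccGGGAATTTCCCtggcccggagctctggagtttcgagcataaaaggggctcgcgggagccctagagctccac
Il6, chr5:30012864-30013113, + strand: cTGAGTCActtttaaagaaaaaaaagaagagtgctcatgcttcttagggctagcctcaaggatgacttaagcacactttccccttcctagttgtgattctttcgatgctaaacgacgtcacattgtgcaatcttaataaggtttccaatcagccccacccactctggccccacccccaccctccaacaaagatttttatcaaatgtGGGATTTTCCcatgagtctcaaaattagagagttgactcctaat
Tnfaip6, chr2:52037863-52038112, + strand: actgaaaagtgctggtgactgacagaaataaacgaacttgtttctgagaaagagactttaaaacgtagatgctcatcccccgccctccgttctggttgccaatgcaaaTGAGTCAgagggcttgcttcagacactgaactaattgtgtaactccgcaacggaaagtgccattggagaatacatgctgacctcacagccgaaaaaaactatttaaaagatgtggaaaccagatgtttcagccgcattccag
Cxcl1 holds overlapping NF-kappaB matches, the nearest of which starts 70 bases before the gene start, Il6 holds an AP-1 match at 249 and an NF-kappaB match at 44 bases, and Tnfaip6 an AP-1 match at 142 bases. Of the 32 genes that were higher in the chemokine, cytokine, hyaluronan and protease lists, 20 had a sequence, and 4 of these held the AP-1 motif and 4 the NF-kappaB consensus in at least 1 listed promoter. Counted in the same way, by gene, 5.16% and 4.46% of all 27025 genes of the table did, and of its 32851 single promoters 4.46% and 3.90%. A match describes letters in this window and was not tested as a binding site.

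Growth factor pathways had more higher than lower genes, where 16.9% of all genes were called higher and 13.6% lower. Of 20 Wnt pathway genes 13 were higher and 0 lower (median 1.79). Besides Sfrp4 they included Wnt9a 32.6-fold (1 of 2 pulmonary arrays above background), Wnt2b 25.8-fold and Fzd2 14.5-fold, both Wnt ligands and a receptor. Sfrp4 measured 3.50 and 3.62 on the B-type arrays and -2.51 and -2.08 on the pulmonary arrays, with each pair of arrays close together. Of 24 genes of the BMP and TGF-beta pathway 15 were higher and 5 lower (median 1.70). The extracellular modulators and ligands Fstl1 25.6-fold, Gdf10 18.6-fold, Gdf6 at least 7.67-fold and Fst 13.5-fold (1 of 2 pulmonary arrays above background) were higher, and Bmp6 7.85-fold, Nog 5.59-fold, Tgfb1 4.91-fold, Eng 3.23-fold and Tgfbr1 2.11-fold were lower. Eng encodes an endothelial co-receptor. In the hedgehog pathway 7 of 12 tested genes were higher, 1 lower and 4 did not pass (median 2.41). The co-receptors Cdon 24.5-fold and Gas1 10.7-fold and the transcription factors Gli2 at least 10.4-fold and Gli1 9.92-fold were higher, while Shh, the ligand made by epithelium, was lower by at least 2.45-fold. For Gas1 the other kept probes gave a log2 difference of -0.68 to 0.42, and 0.09 for Gli1, -2.38 to 0.14 for Tgfbr1. Other processing ended the call for Gdf6 with normexp background correction (1.0, adjusted p = 0.121), Shh with normexp background correction (-0.56, adjusted p = 0.0623) and Tgfb1 with the 4 B-type and pulmonary arrays alone (-2.30, adjusted p = 0.0534). Alternatives that kept both arrays of each group ended the call in 3 of 12 for Tgfbr1 (adjusted p = 0.0695 to 0.103). Cdon gave a log2 difference of 3.92 without Pu1 and 5.31 without Pu2, Fstl1 3.92 and 5.44, Gdf6 5.14 without Pu1, Nog -3.22 and -1.74, and Shh -3.75 and -2.29. Tgfb1 gave a log2 difference of -3.07 without Pu1 and -1.52 without Pu2. Eng lost its call without B2 (adjusted p = 0.0603). Gdf6 lost its call without Pu2, B1 or B2 (adjusted p = 0.0576 to 0.0778). Nog lost its call without B2 (adjusted p = 0.077). Tgfb1 lost its call without B1 or B2 (adjusted p = 0.0543 to 0.097). Tgfbr1 lost its call without A1, A2, B1 or B2 (adjusted p = 0.0564 to 0.162).

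Of 24 FGF, HGF and PDGF family genes 12 were higher and 4 lower, beside 16.9% and 13.6% of all genes. Ligands that were higher included Fgf9 at least 5.33-fold, Fgf7 8.85-fold and Vegfd 7.42-fold, and those genes that were lower were the ligands Pdgfb 7.82-fold and Pdgfc 2.62-fold and the receptors Fgfr2 2.4-fold and Met 1.98-fold. In the IGF axis 11 of 14 tested genes were higher, 1 lower and 2 did not pass (median 3.06). Htra1, a secreted serine protease, measured 3.52 and 3.18 on the B-type arrays and -2.80 and -1.82 on the pulmonary arrays (log2 difference 5.66 ± 0.40 SE, adjusted p = 0.000134), and Igf1 measured 4.26 and 4.13 on the B-type arrays and -0.07 and 0.28 on the pulmonary arrays (log2 difference 4.09 ± 0.31 SE, adjusted p = 0.000181). Both showed B-type arrays well above the pulmonary arrays. Htra3 26.6-fold and Igfbp4 22.4-fold were higher too, and Igfbp2 was lower by 2.73-fold. Guidance molecules were higher in 9 of 21 cases and lower in 3, beside 16.9% and 13.6% of all genes, with Sema3d 23.5-fold and Slit3 16.2-fold higher and Efnb2 22.8-fold, Sema3f 8.97-fold and Nrp2 3.05-fold lower. For Igfbp2 the other kept probes gave a log2 difference of -4.09. Calls that another setting removed were those for Nrp2 with the mean of all its probes (-0.95, adjusted p = 0.0546). Of the alternatives other than leaving out 1 array, the call was lost under 4 of 12 for Fgfr2 (adjusted p = 0.0544 to 0.0633), 6 of 12 for Igfbp2 (adjusted p = 0.0544 to 0.104), 9 of 12 for Met (adjusted p = 0.0678 to 0.195) and 7 of 12 for Pdgfc (adjusted p = 0.0507 to 0.107). Fgf7 gave a log2 difference of 2.41 without Pu1 and 3.88 without Pu2, and Pdgfb -3.86 and -2.07. Fgfr2 lost its call without Pu1, B1 or B2 (adjusted p = 0.0711 to 0.144). Igfbp2 lost its call without Pu1, A1, A2, B1 or B2 (adjusted p = 0.0607 to 0.176). Met lost its call without Pu1, A1, A2, B1, B2, C1 or C2 (adjusted p = 0.053 to 0.219). Nrp2 lost its call without B1 (adjusted p = 0.0693). Pdgfb lost its call without B1 (adjusted p = 0.0729). Pdgfc lost its call without Pu1, A1, A2, B1 or B2 (adjusted p = 0.0639 to 0.18).

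Transcription factors of mesenchyme were higher in 21 of 29 cases and lower in 2 (median 1.95). Twist2 measured 2.86 and 2.60 on the B-type arrays and -1.92 and -4.10 on the pulmonary arrays (log2 difference 5.74 ± 0.71 SE, adjusted p = 0.00134), and Prrx1, a homeobox factor of limb and lung mesenchyme, measured 1.52 and 1.66 on the B-type arrays and -3.32 and -3.27 on the pulmonary arrays (log2 difference 4.89 ± 0.34 SE, adjusted p = 0.000121). Twist1 at least 12.1-fold and Foxc2 26-fold (1 of 2 pulmonary arrays above background, 17.3-fold with the other at the floor) were also higher. The lower genes were Nkx2-1, the factor that specifies lung epithelium, by at least 37.5-fold, and Tbx2 1.99-fold. Of 15 Hox genes that passed the filter, 7 were higher and 0 lower, with Hoxc4 78.8-fold (1 of 2 pulmonary arrays above background, 35.5-fold with the other at the floor), Hoxb7 11.5-fold (1 of 2 pulmonary arrays above background, 5.88-fold with the other at the floor), Hoxb6 10.3-fold and Hoxb4 8.51-fold, and 7 further Hox genes were below the filter. A different setting left no call for Hoxb6 without the filter (3.37, adjusted p = 0.057) and Hoxc4 with the 4 B-type and pulmonary arrays alone (6.30, adjusted p = 0.0516). The call was lost under other alternatives than leaving out 1 array, namely 6 of 12 for Tbx2 (adjusted p = 0.0638 to 0.229). Foxc2 gave a log2 difference of 3.61 without Pu1 and 5.79 without Pu2, Hoxb7 2.39 and 4.65, Hoxc4 8.82 and 3.78, Twist1 6.11 without Pu1, and Twist2 6.83 and 4.65. Hoxb6 lost its call without Pu1, Pu2, A1, A2, B1 or B2 (adjusted p = 0.0605 to 0.176). Hoxb7 lost its call without B1 (adjusted p = 0.0525). Hoxc4 lost its call without B1 or B2 (adjusted p = 0.0674 to 0.0703). Tbx2 lost its call without Pu2, A1, A2, B1 or B2 (adjusted p = 0.0633 to 0.197). Twist1 lost its call without Pu2, B1 or B2 (adjusted p = 0.0565 to 0.0648).

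Among retinoid genes 8 of 18 tested genes were higher, 2 lower and 8 did not pass (median 1.08). These counts and those of the next lists stand beside 16.9% higher and 13.6% lower over all genes. Aldh1a3, a retinaldehyde dehydrogenase that makes retinoic acid, measured 3.34 and 3.25 on the B-type arrays and -6.12 and -4.28 on the pulmonary arrays, higher by 361-fold (1 of 2 pulmonary arrays above background, 163-fold with the other at the floor). Rbp4, the retinol carrier, measured 4.15 and 4.04 on the B-type arrays and -1.30 and -0.46 on the pulmonary arrays (log2 difference 4.97 ± 0.34 SE, adjusted p = 0.000122), and neither gene had overlapping arrays. Adh7 was higher by 22.9-fold, and Cyp26b1 3.75-fold and Aldh1a1 2.81-fold were lower. Lipid genes were lower in 8 of 19 cases and higher in 4 (median -1.54). The fatty acid receptor Cd36 and the regulator Pparg were lower by at least 350-fold and 9.26-fold, and Apod, a lipocalin, was higher by 49.4-fold. Of 23 detoxification genes 11 were higher, with Cyp1b1 49.8-fold and Mt2 9.5-fold, a cytochrome P450 and a metallothionein, and 4 lower. Prostaglandin and vasoactive genes included 7 higher and 8 lower of 21, with the receptor Ptgfr 49.5-fold (1 of 2 pulmonary arrays above background, 26.3-fold with the other at the floor) higher, and the endothelin receptor Ednrb 88-fold (1 of 2 B-type arrays above background) and the prostaglandin-degrading Hpgd 55.8-fold lower. The call was also lost for Cyp26b1 under median scaling (-1.55, adjusted p = 0.0533) and in the authors' value table (-1.55, adjusted p = 0.0535). Aldh1a3 gave a log2 difference of 7.57 without Pu1 and 9.42 without Pu2, Cyp1b1 6.41 and 4.87, Mt2 2.30 and 4.19, and Ptgfr 6.94 and 4.32. Cd36 gave a log2 difference of -8.74 without B1 and -10.36 without B2, and Ednrb -5.66 and -7.25. Aldh1a1 lost its call without B1 or B2 (adjusted p = 0.0698 to 0.0875). Cyp26b1 lost its call without Pu2, B1 or B2 (adjusted p = 0.0572 to 0.117).

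Surface antigens shared between progenitors and fibroblasts were higher in 7 of 18 cases and lower in 5, beside 16.9% and 13.6% of all genes. Entpd2 35-fold, Cd248 20.9-fold and Cd34 9.88-fold were higher and Bst1 at least 90.7-fold and Cd24a at least 169-fold lower. Adhesion genes were higher in 10 of 25 cases and lower in 10, with the collagen-binding integrin chain Itga11 46.9-fold (1 of 2 pulmonary arrays above background) and Itgbl1 46.2-fold higher, and Itga4 at least 48.3-fold and Gja5 14.5-fold, a leukocyte integrin chain and an arterial connexin, lower. Of 18 immediate early and stress genes 10 were higher and 0 lower (median 1.07), with Egr2 4.67-fold, Egr1 3.7-fold and Jund 3.38-fold. All of these encode transcription factors, and cells switch on Egr1 and Egr2 rapidly when stimulated. Genes of the list of MHC class II and antigen presentation were lower in 7 of 14 cases and higher in 0, with H2-Ab1 lower by 100-fold. The others called lower were the class II genes H2-Aa, H2-Eb1, H2-DMa, H2-DMb1 and Cd74, and Psmb9. The class I genes H2-K1, H2-D1 and B2m did not pass, nor did Tap1, Tap2, Psmb8 and Ciita. Interferon-stimulated genes were higher in 6 of 19 cases and lower in 4, beside 16.9% and 13.6% of all genes, with Ifit2 8.28-fold higher and Rsad2 8.78-fold lower. Genes of the proliferation list, which also holds cell cycle inhibitors, were lower in 6 of 15 cases, with Mki67 16-fold and Ccna2 at least 11.2-fold. The inhibitors split: Cdkn1a was among the 6 lower genes, Cdkn2b did not pass, and Cdkn1c 5.27-fold was the only gene of the list that was higher. Imprinted growth genes were higher in 11 of 13 cases (median 1.99), with Meg3 14.7-fold (1 of 2 pulmonary arrays above background), Igf2 7.68-fold and Peg3 7.36-fold, and Peg10 (1.04, adjusted p = 0.326) and Mest (-0.34, adjusted p = 0.547) did not pass. For Mest the other kept probes gave a log2 difference of 0.67 to 1.53. Other processing ended the call for Jund with the 4 B-type and pulmonary arrays alone (1.76, adjusted p = 0.0503). Itga11 gave a log2 difference of 4.59 without Pu1 and 6.51 without Pu2, and Meg3 3.24 and 4.52. Mki67 gave a log2 difference of -4.61 without B1 and -3.39 without B2. Jund lost its call without Pu1, B1 or B2 (adjusted p = 0.0569 to 0.131).

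The same model set B-type fibroblasts against the other sorted types, on the same slide. Against A-type fibroblasts, 0 of 17063 genes (0.0%) passed in either direction, and the lowest adjusted p was 0.119. An unadjusted p under 0.05 was found for 544, a smaller share of the genes than the 0.05 that would pass on average without any difference. The spread used also holds that of the pulmonary and C-type arrays, so this share does not show that both types are alike. With the 4 B-type and A-type arrays alone, 0 genes passed as well. With normexp background correction limma called 26 genes, with a trended and robust variance 10, and without C1 or C2 a single gene, Thy1. Normexp and the trended variance shared 9 genes, among them Npnt, Itga8, Gja5 and Igfbp5, of which Igfbp5 alone was higher in B-type fibroblasts. Thy1 measured 4.91 and 4.63 in B-type against -0.49 and -0.08 in A-type fibroblasts, a log2 difference of 5.06 ± 0.96 SE, adjusted p = 0.277, and 0.0446 without C1 or C2. C1 and C2 themselves lay far apart for Thy1, at 1.86 and -1.60. Against C-type fibroblasts 419 genes passed (2.46%), 225 higher (1.32%) and 194 lower (1.14%), and the count ranged from 2 without B1 to 938 without C1. Of the 225, 133 were also higher and 23 lower than in pulmonary single cells, and of the 194, 99 were also lower and 13 higher. Genes higher than in pulmonary single cells, A-type and C-type fibroblasts at once numbered 0 (0.0%), and so did genes lower than in all 3.

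Against C-type fibroblasts the differences among genes named above included Efhd1 8.43 (adjusted p = 0.00249), Dpp4 5.82 (adjusted p = 0.00908), Ccl8 5.51 (adjusted p = 0.00249) and Ly6a 4.91 (adjusted p = 0.0165) higher, and Npnt -6.06 (adjusted p = 0.00151), Scn3a -5.86 (adjusted p = 0.00151) and Gja5 -5.11 (adjusted p = 0.00325) lower, picked here after their values were seen. Without B1 the call was lost for Efhd1, Dpp4, Ccl8, Ly6a and Gja5 (adjusted p = 0.0573 to 0.14), without B2 for Dpp4 and Ly6a (0.0888 and 0.128), and with the 4 B-type and C-type arrays alone for the same pair (0.0723 and 0.104). Npnt measured 3.01 and 3.17 on the A-type arrays and 6.01 and 6.39 on the C-type arrays, and its B-type values were lower than both. Thy1 did not pass against C-type fibroblasts, at 4.64 (adjusted p = 0.0621). Each sorted type was set against the same pulmonary arrays, so values in those comparisons are not independent. Side by side against those arrays, the log2 difference of Lum was 7.04 in B-type, 6.29 in A-type and 4.27 in C-type fibroblasts, and that of Col14a1 was 5.84, 5.80 and 4.04. For Npnt these were -3.46, -0.51 and 2.60.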

How the data were processed

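Per the labels, RNA of 50000 cells per sample was amplified, labelled with Cy3 and hybridised to one-colour Agilent arrays, 2 for each of 4 groups. Per the file headers, the deposited scanner files hold background-subtracted spot intensity from Agilent Feature Extraction 10.10.1.1. The authors' value table holds log2 values, which equalled the log2 processed signal minus 1 constant per array (within 0.02 for 100% of 55653 probes; every column's median 4.84), so it served as an alternative.

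Of 62976 spots per array, control spots and 28 probes with outlier flags were left out and repeated spots averaged. Log2 signals were scaled by the 75th percentile of each array. Probes well above background on both arrays of at least one of B-type and pulmonary cells were kept, and the brightest probe stood for its gene, which left 17063 of 23858 named genes. Names came from the RefSeq table (GRCm38.p6) by accession for 28011 probes, by another accession for 321 and by synonym for 265, while 4529 kept the file's symbol and 22527 had none. Probes of several genes numbered 818. Limma 3.58.1 in R 4.3.3 fitted the 4 group means on all 8 arrays (4 residual and 3.11 prior degrees of freedom), with Benjamini-Hochberg adjustment over all genes. The number of arrays limits the precision. On simulated data of 17063 genes for the B-type and pulmonary comparison, 38 of 100 genes changed by a log2 of 2 and 80 of 100 changed by 4 were called, with 1 call among 16863 unchanged genes. The simulation drew normal noise with the same spread for all groups and changed those genes alone. In the data 30.5% of genes lay 2-fold apart between Pu1 and Pu2 and 4.9% between B1 and B2, and 5198 were called. The simulated shares therefore do not give the power or the error rate of the real comparison.

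Same-numbered samples did not deviate together (correlations from -0.092 to 0.063), so the numbers were not used as pairs. The comparison, the 34 function lists and the 20 cell type lists were chosen with earlier results of these data known. Named genes are the sorting panel, the 10 highest and 10 lowest genes measured on all 4 arrays, the 5 largest bounds each way, and up to 4 called genes per list and direction; genes of a list that did not pass are named where they are 5 or fewer, and some genes under this rule are not reported here. Alternatives were another background correction, scaling, filter, probe choice, variance model, replicate block or set of arrays. Files were handled in Python 3.11.15 (pandas 2.3.3, numpy 2.4.6) and figures made with matplotlib 3.10.9.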

Additional observations from a re-analysis of the deposited data

Results flagged for a closer look

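10 genes named above were called in opposite directions against the pulmonary arrays in B-type and C-type fibroblasts, and the difference between the types passed as well. Over all 17063 genes, 35 were called in opposite directions, with or without a passed difference between the types. Without B1 the difference between the types passed for Npnt and Scn3a alone (2 of 10), and without B2 for 5, with Ccl8, Gja5 and Itga8. All 3 comparisons passed for 2 of 10 without B1, for 4 without B2 and for 6 to 10 under every other setting that tested genes in all 3 groups. Against the pulmonary arrays, Serpine2, Tbx2 and Aldh1a1 lost their call without B1 or B2, and Nrp2 without B1. Values are log2 differences, and both comparisons share the pulmonary arrays. In 8 of them B-type fibroblasts were the lower type. Itga8, an integrin chain, differed by -2.31 in B-type and 2.62 in C-type fibroblasts from the pulmonary arrays, and by -4.93 between both types (limma, adjusted p = 0.00299). Npnt, its matrix ligand, differed by -3.46 in B-type and 2.60 in C-type fibroblasts from the pulmonary arrays, and by -6.06 between both types (limma, adjusted p = 0.00151). Scn3a, a sodium channel subunit, differed by -4.56 in B-type and 1.30 in C-type fibroblasts from the pulmonary arrays, and by -5.86 between both types (limma, adjusted p = 0.00151). Gja5, an arterial connexin, differed by -3.86 in B-type and 1.25 in C-type fibroblasts from the pulmonary arrays, and by -5.11 between both types (limma, adjusted p = 0.00325). Serpine2, a protease inhibitor, differed by -1.49 in B-type and 2.24 in C-type fibroblasts from the pulmonary arrays, and by -3.73 between both types (limma, adjusted p = 0.00754). Nrp2, a semaphorin receptor, differed by -1.61 in B-type and 1.58 in C-type fibroblasts from the pulmonary arrays, and by -3.19 between both types (limma, adjusted p = 0.00462). Aldh1a1, a retinaldehyde dehydrogenase, differed by -1.49 in B-type and 1.70 in C-type fibroblasts from the pulmonary arrays, and by -3.19 between both types (limma, adjusted p = 0.00576). Tbx2, a transcription factor of lung mesenchyme, differed by -0.99 in B-type and 1.69 in C-type fibroblasts from the pulmonary arrays, and by -2.68 between both types (limma, adjusted p = 0.00754). In the other 2 B-type fibroblasts were the higher type. Ccl8, a monocyte attractant, differed by 3.26 in B-type and -2.25 in C-type fibroblasts from the pulmonary arrays, and by 5.51 between both types (limma, adjusted p = 0.00249). Fgf18, a growth factor, differed by 2.86 in B-type and -1.88 in C-type fibroblasts from the pulmonary arrays, and by 4.74 between both types (limma, adjusted p = 0.00743). All 10 pairs of B-type arrays lay on one side of the C-type arrays, which the choice of genes with a passed difference made likely.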

How the results depend on the processing

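With 2 arrays a group, leaving out 1 array moved the count of genes called between B-type and pulmonary cells over the range 2433 to 7063, and B1 and B2 brought it to 2433 and 2557. Every other alternative on genes gave between 3722 and 5720 calls, the 4 B-type and pulmonary arrays alone 3748, and testing every probe called 7610 of 36815 probes. Against A-type fibroblasts normexp gave 26 calls, a trended and robust variance 10, and leaving out 1 array 0 to 1. Against C-type fibroblasts the count was 250 without the filter, 115 with the 4 B-type and C-type arrays alone, and 2 to 938 without 1 array; the cause was not tested. Of the 224 named genes that were called, 0 reversed under any alternative. Median scaling took the call from 11, normexp from 9, no filter and the authors' value table from 11 each, the 4 B-type and pulmonary arrays alone from 16 and leaving out B1 or B2 from 29. With the replicate block, which the numbers do not justify as a pairing, the counts were 4648, 0 and 300, and 6 named genes lost their call. Among genes that did not pass, the sign turned under median scaling or in the authors' value table for Mcam (0.04), Csf3r (0.11), Dpp4 (0.05 and 0.06), Fmod (0.06), Flt3 (0.07), Siglech (0.13) and Mest (0.01), and for Flt3 under normexp and quantile scaling (0.01 each). Leaving out 1 array gave from -1.5 to 0.59 for Adam12, -1.11 to 0.12 for Csf1r, -0.51 to 0.01 for Csf3r, -0.86 to 0.25 for Dpp4, -0.84 to 0.27 for Flt3, -0.02 to 1.42 for Plac8, -0.90 to 0.22 for Mest and -1.94 to 0.64 for Wt1, and the mean of all probes gave 0.62 for Mest. A slide block was not run: slide and group coincide for the pulmonary comparison, and both others lie within 1 slide. Probes near background limit the sizes of the largest falls to bounds.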
